A study of Mus musculus with 12 samples.

Results

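The MiT/TFE family, Tfeb, Tfe3, Tfec and Mitf, was followed by chromatin accessibility (ATAC-seq) in primary mouse cortical neurons. Peaks of the 12 libraries that overlapped by 1 bp or more were merged into 263785 regions. Regions in the gene body or within 10 kb upstream of an annotated start site (TSS) of these 4 genes were taken. This gave 38 regions (12 for Tfeb, 4 for Tfe3, 1 for Tfec and 21 for Mitf). Neurons came from C57BL/6 wild-type embryos at embryonic day 18 and gave 4 groups of 3 libraries, all labelled batch 1 with no word on what the batch was. The PBS group received vehicle and the PFF group pre-formed fibrils of human wild-type α-synuclein for 7 days. The PFF+MLi-2 group received fibrils plus the LRRK2 kinase inhibitor MLi-2 over the last 5 days. The PFF+Rab5 ASO group received fibrils plus antisense oligonucleotides against Rab5a and Rab5b over the last 3 days. The free-text notes of the 6 libraries with MLi-2 or ASO speak of PBS, but both the titles and the treatment labels give PFF, which was used. By the study's methods a biological replicate was the neurons of 1 pregnancy, divided over the groups, but no label says which pregnancy a library came from or whether equal numbers share one.

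Members of this family are basic helix-loop-helix leucine zipper factors that bind E-box DNA as homodimers or heterodimers with each other. TFEB and TFE3 are held in the cytoplasm by mTORC1 phosphorylation at the lysosome and, once dephosphorylated by calcineurin, enter the nucleus and switch on lysosomal and autophagy genes through CLEAR elements, which contain the E-box CACGTG. MITF is the master regulator of pigment cells and also acts in osteoclasts, and its gene has several alternative first exons, the last of which gives the melanocyte form. TFEC is best known from macrophages. In neurons, fibrils seed aggregates of endogenous α-synuclein that pass through the endolysosomal system, where LRRK2 phosphorylates Rab proteins and Rab5 governs early endosomes.

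Each peak list held between 137417 and 184717 peaks. The height of a peak is given as its fold enrichment over local background (the peak caller's column) or as its percentile within the list of its own library, where 100 is the highest peak. The lists carry no read counts over all regions, and an absent peak means only that no peak was called. The relative depth inferred from the lists was lowest in the PFF group (0.843 ± 0.0728, SD, n = 3) and highest in the PFF+Rab5 ASO group (1.22 ± 0.149). It was 0.939 ± 0.0333 in PBS and 0.999 ± 0.0373 in PFF+MLi-2, and its part in the results was not tested. The narrowest peak of a list was 53 to 59 bp wide with Rab5 ASO and 62 to 66 bp wide in the 9 other lists. Regions of neuronal markers at the TSS were called in all 12 libraries for 11 of 11 genes. Of 9 microglia and macrophage markers, none was called in all 12 libraries, 5 (Cx3cr1, Aif1, Spi1, Itgam and Trem2) had no region in any. Per library, 0 to 4 were called (PBS 1 to 4, PFF 3 to 4, PFF+MLi-2 0 to 4, PFF+Rab5 ASO 1 to 2). TSS regions in all 12 libraries were found for 5 of 7 astrocyte, 4 of 7 oligodendrocyte, 2 of 6 endothelial and mural, and 4 of 5 pigment cell markers, against 62.7% of all protein-coding genes. In these bulk libraries, fewer cells with an open region and less opening per cell cannot be told apart.

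Of 9 RefSeq start sites of the family, 6 promoters are shown first, the 4 with a region in all 12 libraries and 2 of those without a region. Each is the 150 bases upstream of a RefSeq start (GRCm38.p6), written 5′ to 3′ on the gene's strand. The 2 without one, given last, are the Tfec start and the melanocyte-form start of Mitf.
Mitf upstream start, chr6:97806908-97807057, plus strand: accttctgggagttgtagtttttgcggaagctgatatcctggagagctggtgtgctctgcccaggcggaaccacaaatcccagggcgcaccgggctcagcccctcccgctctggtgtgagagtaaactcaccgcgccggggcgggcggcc
Tfeb upstream start, chr17:47736887-47737036, plus strand: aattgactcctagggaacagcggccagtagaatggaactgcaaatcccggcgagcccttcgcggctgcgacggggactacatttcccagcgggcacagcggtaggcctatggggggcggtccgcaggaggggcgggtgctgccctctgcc
Tfeb start downstream, chr17:47737781-47737930, plus strand: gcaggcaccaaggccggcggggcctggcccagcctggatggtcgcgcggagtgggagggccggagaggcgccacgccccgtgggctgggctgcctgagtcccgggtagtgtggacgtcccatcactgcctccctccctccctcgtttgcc
Tfe3 start, chrX:7762511-7762660, plus strand: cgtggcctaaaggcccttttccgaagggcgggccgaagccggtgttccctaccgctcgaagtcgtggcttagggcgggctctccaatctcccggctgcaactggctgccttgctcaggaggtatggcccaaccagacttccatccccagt
Tfec start, chr6:16898442-16898591, minus strand: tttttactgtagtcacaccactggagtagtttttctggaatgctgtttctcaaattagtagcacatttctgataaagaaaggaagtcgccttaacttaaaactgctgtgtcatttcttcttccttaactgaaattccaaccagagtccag
Mitf melanocyte-form start, chr6:97991633-97991782, plus strand: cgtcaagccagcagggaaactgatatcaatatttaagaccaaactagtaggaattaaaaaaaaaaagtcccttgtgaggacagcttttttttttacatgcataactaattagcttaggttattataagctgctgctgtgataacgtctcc
GC content was 64% with 10 CpG in the Mitf upstream promoter, 66% with 12 and 74% with 12 in the Tfeb promoters, and 63.3% with 10 at Tfe3. It was 37.3% with 1 CpG at Tfec and 35.3% with 2 at the Mitf melanocyte-form start, against a median of 54% and 4 CpG over the 32851 promoters of the RefSeq table. The other 3 starts did not follow this division. The Tfeb-201 start, with 67.3% GC and 5 CpG, was 1734 bp from the nearest region, and the Mitf-203 start, with 55.3% and 2, was 8549 bp from one. A downstream Tfe3 start, with 60.7% and 4, lies at a region called in 8 libraries. None of the 9 stretches held CACGTG (4.30% of all promoters of this length do), TCACGTGA (0.621%), CATGTG (7.15%, an E-box variant) or TGANTCA (4.24%, the AP-1 element), searched on both strands.

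The regions that came and went between groups are shown next as 151 bases around the highest summit (GRCm38, plus strand), with the same 4 motifs in capitals where present. A region is named by its gene and the distance of that summit from the first TSS of the gene. The first 4 were called in all 3 PFF libraries, the next in all 3 PFF+Rab5 ASO libraries and Mitf +174.9 kb in all 3 PBS libraries. Mitf +21.2 kb had the largest difference in height among the family regions tested for Rab5 ASO.
Tfeb +25.7 kb, chr17:47762630-47762780: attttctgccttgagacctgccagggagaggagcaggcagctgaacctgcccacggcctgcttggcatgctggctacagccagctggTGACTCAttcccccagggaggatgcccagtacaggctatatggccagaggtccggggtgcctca
Tfeb +36.8 kb, chr17:47773742-47773892: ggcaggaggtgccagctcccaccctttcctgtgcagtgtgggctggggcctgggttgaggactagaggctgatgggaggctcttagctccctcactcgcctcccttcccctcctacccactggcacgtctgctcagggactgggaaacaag
Tfeb +46.7 kb, chr17:47783699-47783849: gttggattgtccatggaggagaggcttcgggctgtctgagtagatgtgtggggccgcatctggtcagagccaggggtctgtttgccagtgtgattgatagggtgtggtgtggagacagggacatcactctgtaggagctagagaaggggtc
Mitf +1.8 kb, chr6:97808744-97808894: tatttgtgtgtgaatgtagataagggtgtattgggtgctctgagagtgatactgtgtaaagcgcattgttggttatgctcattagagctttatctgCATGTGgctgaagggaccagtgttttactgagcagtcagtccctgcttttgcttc
Tfeb +52.2 kb, chr17:47789122-47789272: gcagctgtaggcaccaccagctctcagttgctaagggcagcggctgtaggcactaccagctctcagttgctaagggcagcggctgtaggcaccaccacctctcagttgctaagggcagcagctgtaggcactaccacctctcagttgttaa
Mitf +174.9 kb, chr6:97981858-97982008: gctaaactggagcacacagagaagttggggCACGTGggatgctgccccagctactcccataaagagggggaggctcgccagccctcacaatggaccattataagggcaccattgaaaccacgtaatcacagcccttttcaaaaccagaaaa
Mitf +21.2 kb, chr6:97828156-97828306: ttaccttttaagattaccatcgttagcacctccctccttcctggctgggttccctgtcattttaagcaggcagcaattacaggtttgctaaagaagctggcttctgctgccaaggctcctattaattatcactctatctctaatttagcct
Tfeb +25.7 kb carries a TGANTCA match, Mitf +1.8 kb a CATGTG match and Mitf +174.9 kb the CACGTG match, all within introns. Mitf +21.2 kb has a CATGTG match within 100 bp of its summit but outside the printed bases. Tfeb +52.2 kb is a tandem repeat, in which 94.4% of bases match the sequence 39 bp further on, whereas the best such match in any other family region was 47.5%. Reads in such a repeat can align to several copies, so its peak is uncertain.

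Tfeb lies on chr17:47737030-47792419 (plus strand, ENSMUSG00000023990.18) and its strongest region was not at the most upstream TSS. That region, chr17:47762947-47763322, covers the untranslated first exon of transcript Tfeb-208 and is named Tfeb +26.2 kb. Tfeb +26.2 kb had percentiles of 97.6, 91.3 and 92.2 for PBS, 95.0, 95.8 and 95.2 for PFF, 96.5, 96.1 and 91.6 for PFF+MLi-2 and 94.3, 93.1 and 93.0 for PFF+Rab5 ASO. Its fold enrichments ran from 9.43 to 13.0. The groups overlapped except that all 3 PFF+Rab5 ASO libraries lay below all 3 PFF libraries. Tfeb +0.0 kb, chr17:47736899-47737237, at the untranslated first exon of Tfeb-202, had percentiles of 88.3, 92.2 and 88.5 for PBS, 87.4, 83.5 and 81.0 for PFF, 88.8, 87.7 and 79.7 for PFF+MLi-2 and 86.6, 85.2 and 82.2 for PFF+Rab5 ASO. PBS had the highest mean at this start site, with no overlap with PFF or PFF+Rab5 ASO.

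Tfeb +0.8 kb, chr17:47737314-47737950, at the first exons of Tfeb-202, Tfeb-204 and Tfeb-207, gave 82.7, 76.6 and 77.1 for PBS, 78.1, 76.3 and 66.4 for PFF, 79.6, 75.7 and 80.2 for PFF+MLi-2 and 71.2, 82.9 and 60.1 for PFF+Rab5 ASO. The spread within the PFF+Rab5 ASO group (71.4 ± 11.4, SD, n = 3) covered the other groups. Next to it, Tfeb +1.3 kb, chr17:47738108-47738520, was called in 8 libraries (1 PBS, 3 PFF, 2 PFF+MLi-2 and 2 PFF+Rab5 ASO) at percentiles of 0.492 to 4.69, near the bottom of those lists. The other 8 Tfeb regions were all called in 6 or fewer libraries.

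Tfe3 lies on chrX:7762560-7775202 (plus strand, ENSMUSG00000000134.17) and had the steadiest promoter of the family after Mitf. Tfe3 +0.0 kb, chrX:7762347-7762904, which spans the TSS, had percentiles of 95.2, 95.1 and 94.4 for PBS, 92.1, 94.6 and 94.0 for PFF, 95.4, 96.2 and 96.0 for PFF+MLi-2 and 93.6, 96.9 and 94.1 for PFF+Rab5 ASO. Its fold enrichments ran from 9.78 to 11.9. PFF+MLi-2 libraries were above all PBS and all PFF libraries, PFF+Rab5 ASO spanned them, and PFF and PBS overlapped by this measure. Tfe3 +3.3 kb, chrX:7765805-7766090, at an exon of the retained-intron transcript Tfe3-213, was called in all 12 libraries at percentiles of 41.8 to 60.9 with overlapping groups. Tfe3 +1.4 kb, chrX:7763815-7764005, in an exon, was called in 8 libraries at percentiles of 1.76 to 21.2, and Tfe3 -8.7 kb was called in 1 library.

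Mitf lies on chr6:97807052-98021349 (plus strand, ENSMUSG00000035158.15) and its most upstream promoter was the highest family region in each library. Mitf -0.1 kb, chr6:97806758-97807177, had percentiles of 99.6, 98.7 and 99.6 for PBS, 99.7, 99.2 and 99.4 for PFF, 99.4, 98.5 and 99.1 for PFF+MLi-2 and 99.2, 99.6 and 99.5 for PFF+Rab5 ASO. Its fold enrichments ran from 13.5 to 16.2. The groups overlapped throughout. No region lay at the downstream starts. The nearest regions were 8567 bp from the TSS of Mitf-203, 2459 bp from that of Mitf-204 and 3011 bp from that of Mitf-201, the melanocyte form. Mitf +0.3 kb was called in 2 libraries at percentiles of 14.3 and 18.3.

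The other Mitf regions were intronic, and 4 of them were called in all 12 libraries. Mitf +196.3 kb, chr6:98003227-98003443, had percentiles of 81.3, 82.9 and 83.7 for PBS, 86.3, 86.7 and 75.7 for PFF, 73.0, 84.6 and 78.0 for PFF+MLi-2 and 92.0, 89.8 and 88.1 for PFF+Rab5 ASO. Mitf +21.2 kb, chr6:97828037-97828406, had 51.3, 69.2 and 70.3 for PBS, 73.0, 75.7 and 54.9 for PFF, 51.9, 57.2 and 70.5 for PFF+MLi-2 and 80.9, 81.9 and 87.4 for PFF+Rab5 ASO. In both regions all 3 PFF+Rab5 ASO libraries were above all 9 others, as in 5.34% of all 72465 regions common to the 12 libraries. Mitf +26.0 kb, chr6:97832982-97833328, ranged over 42.8 to 76.5, with overlapping groups. Mitf +48.8 kb, chr6:97855796-97856037, ranged over 28.7 to 61.3, with overlapping groups. Mitf +146.0 kb, chr6:97952924-97953185, was called in 11 libraries. Its percentiles were 48.0, 17.9 and 62.8 in PBS, 66.0, 74.3 and 75.7 in PFF, 39.6 and 31.7 in replicates 2 and 3 of PFF+MLi-2, and 48.0, 55.4 and 68.2 in PFF+Rab5 ASO. The PFF libraries were above all PBS and PFF+MLi-2 libraries there and overlapped PFF+Rab5 ASO.

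Tfec lies on chr6:16833373-16898441 (minus strand, ENSMUSG00000029553.10) and no region was called at any of its start sites. The nearest region was 22344 to 33077 bp away from them. Its 1 region, the intronic Tfec +29.9 kb, chr6:16868340-16868603, was called in 2 of 3 libraries of each group. Its percentiles were 65.2 and 7.73 for PBS, 30.0 and 42.0 for PFF, 54.6 and 48.4 for PFF+MLi-2 and 48.0 and 31.0 for PFF+Rab5 ASO. Both PFF+MLi-2 libraries were above both PFF and both PFF+Rab5 ASO libraries, and the PBS libraries spanned all the others. Of 21923 protein-coding genes, 62.7% had a TSS region in all 12 libraries, as Tfeb, Tfe3 and Mitf did and Tfec did not.

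Most family regions were called in a minority of libraries. The 9 regions called in 1 library came from PBS libraries in 3 cases, from PFF in 3, from PFF+MLi-2 in 1 and from PFF+Rab5 ASO in 2. Mitf +76.6 kb, chr6:97883633-97883821, was called in 8 libraries. Its percentiles were 29.9 in PBS replicate 2, 40.4, 66.8 and 63.5 in the PFF libraries, 28.7 and 49.8 in PFF+MLi-2 replicates 2 and 3, and 60.7 and 31.0 in PFF+Rab5 ASO replicates 1 and 3. It was thus called in all PFF libraries, as were Tfeb +1.3 kb and Tfe3 +1.4 kb, without being absent from any group. Mitf +41.4 kb was called in 6 libraries and the Tfeb region at chr17:47748959-47749089 in 5, with at least 1 in each group. Mitf +76.0 kb was called in PFF replicates 1 and 2 only, at 61.3 and 21.1. Mitf +93.0 kb was called in PFF+Rab5 ASO replicates 2 and 3 only, at 28.3 and 31.0.

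**Figure D1:**
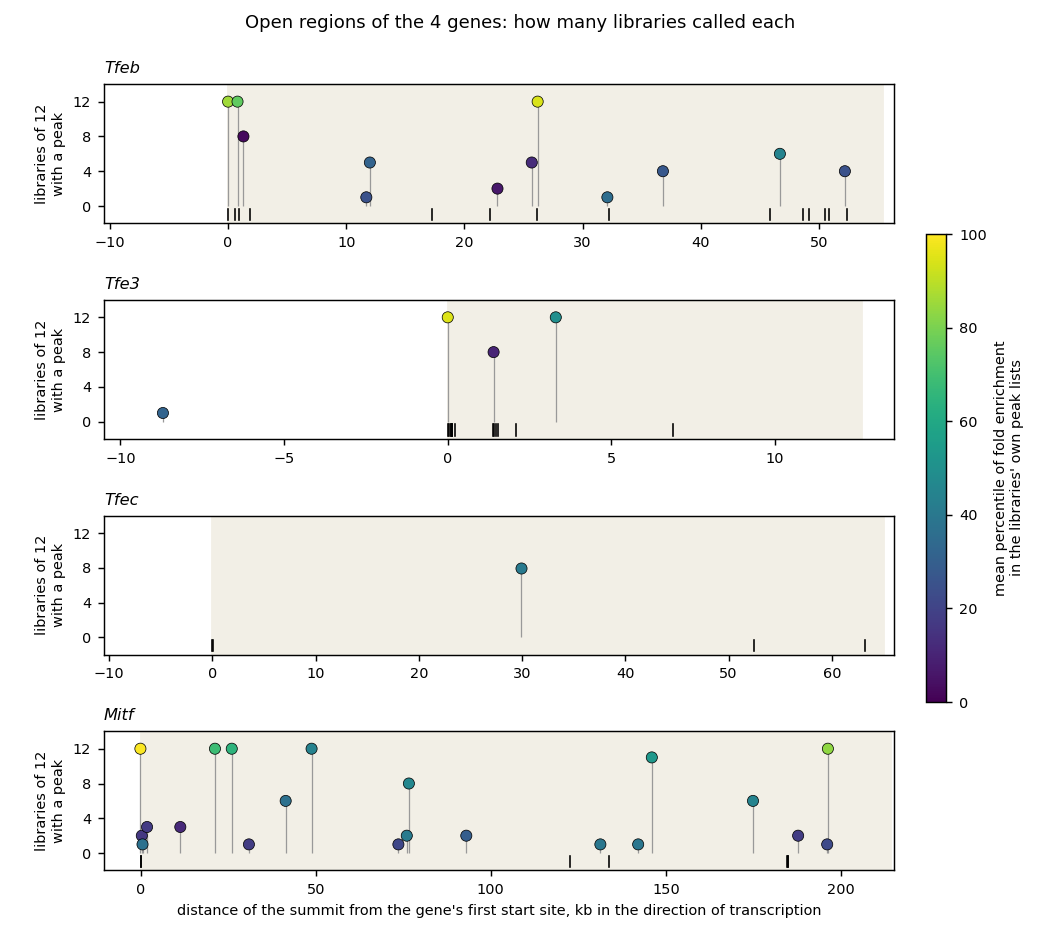
Regions of the 4 genes (1 panel each) by distance of the summit from the first TSS (kb, x axis) and the number of libraries of 12 that called each (y axis), with point colour for the mean within-list percentile, black ticks for TSSs and shading for the gene body. The upstream promoters of Tfeb, Tfe3 and Mitf and the internal Tfeb +26.2 kb were called in 12 libraries with high percentiles, whereas Tfec has 1 intronic region in 8 libraries away from its TSSs.

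Family regions numbered 9.81 per 100 kb of gene and upstream window, against 9.68 for all regions over the genome. The values were 18.4 for Tfeb, 17.7 for Tfe3, 9.36 for Mitf and 1.33 for Tfec. Of the 38 regions, 26.3% were called in all 12 libraries (27.5% of all regions) and 23.7% in 1 library only (26.6%). Median GC content of the 201 bp around the summit was 54.5% against 48.8%.

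More family regions were called in the PFF libraries than in the PBS or PFF+MLi-2 libraries. Of the 38 regions, 16 to 20 were called per library for PBS (17.3 ± 2.31, SD, n = 3), 23 to 24 for PFF (23.7 ± 0.577), 12 to 17 for PFF+MLi-2 (15.3 ± 2.89) and 14 to 25 for PFF+Rab5 ASO (18.3 ± 5.86, with 25, 14 and 16 in replicates 1, 2 and 3). The PFF libraries did not overlap the PBS or PFF+MLi-2 libraries, and PFF+Rab5 ASO overlapped each group. In PFF this was 60.5% to 63.2% of the family regions against 49.0% to 56.0% of all regions in the same libraries, and in PFF+MLi-2 31.6% to 44.7% against 46.1% to 46.9%. In the lists as deposited, the family share exceeded the share of all regions in the 3 PFF libraries and in replicate 1 of PFF+Rab5 ASO, and in no other library. Tfeb and Mitf carried the difference in counts. In PFF, 69.4% of Tfeb and 55.6% of Mitf regions were called on average, where 53.1% of all regions were. Mitf was thus near the share of all regions there, and below it in PFF replicate 2 (52.4% against 54.4%). In PBS the means were 38.9% for Tfeb and 44.4% for Mitf, where 50.1% of all regions were called. Tfeb had 4.67 ± 2.08 of 12 regions called for PBS, 8.33 ± 0.577 for PFF, 5.00 ± 2.00 for PFF+MLi-2 and 6.00 ± 2.65 for PFF+Rab5 ASO. Mitf had, in the same order, 9.33 ± 0.577 of 21, 11.7 ± 0.577, 7.33 ± 1.15 and 8.67 ± 2.08. When only the 137417 top peaks of each library were used, which leaves 33 family regions, PFF (18 to 24) overlapped PBS (13 to 18) and stayed above PFF+MLi-2 (12 to 17). With peaks of −log10 q of at least 5 PFF (15 to 20 of 28 regions) again overlapped PBS (11 to 18) and not PFF+MLi-2 (11 to 12). Under both settings the family share stayed above that of all regions in PFF replicate 2 only. PFF replicate 1 had 54.5% against 55.1% among the top peaks and 57.1% against 60.3% at the stricter q. PFF replicate 3 had 72.7% against 54.0% among the top peaks and 53.6% against 53.7% at the stricter q. No p-value is given for these sums, since the 3 against 3 design cannot go below an exact p of 0.1 and the regions were chosen with results known.

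**Figure D2:**
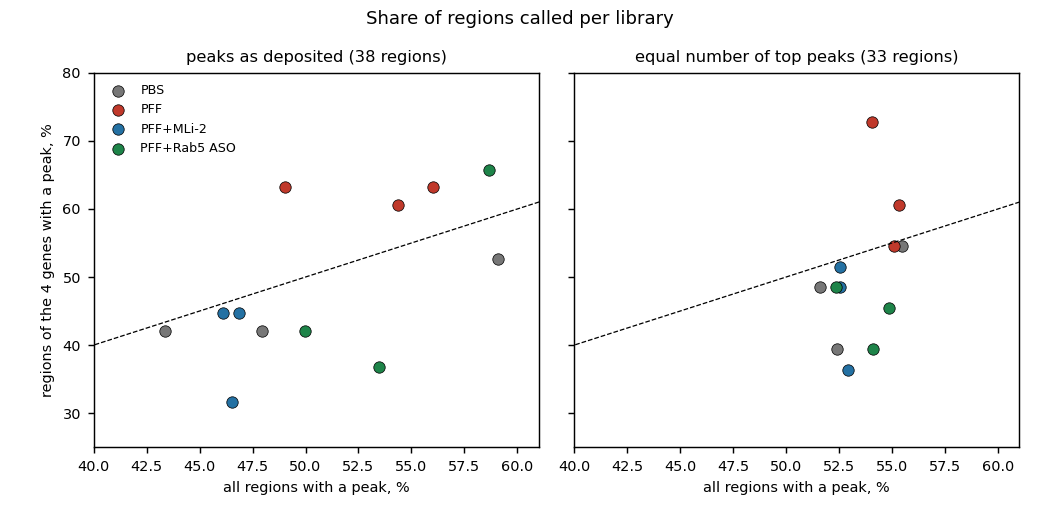
Share of the family regions called (percent, y axis) against the share of all regions called (percent, x axis), with 1 point per library coloured by group and a dashed line where the shares are equal, for the lists as deposited (left) and for equal numbers of top peaks (right). On the left the 3 PFF libraries lie above the line at 60.5% to 63.2%, over all PBS and PFF+MLi-2 libraries. On the right they overlap PBS, and PFF replicate 1 lies just under the line.

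The question of whether fibrils open or close family regions outright was put to regions called in all 3 libraries of a group and in 0 of the other. After PFF, 3 of 34 regions were gained against PBS (8.82%, where 1.10% of all regions were) and 0 were lost (0.405% of all). The gained regions were Tfeb +25.7 kb, kept in 4 of 5 alternative settings of peak threshold, merging and upstream window, and Tfeb +36.8 kb and Mitf +1.8 kb, each kept in 2 of 5. The latter pair was not gained among top peaks, at −log10 q of at least 5 or with merging at 50 bp. Tfeb +25.7 kb, chr17:47762659-47762863, ends 83 bp before the strongest Tfeb region. It was called at percentiles of 7.03, 38.5 and 6.07 in PFF, from 17, 22 and 15 fragments at the summit. It was also called in PFF+MLi-2 replicate 3 at 4.62 and in PFF+Rab5 ASO replicate 1 at 5.21. Tfeb +36.8 kb, chr17:47773714-47773870, was called at 14.4, 44.4 and 36.3 in PFF, from 11 to 13 fragments, and otherwise at 13.7 in PFF+Rab5 ASO replicate 1. Mitf +1.8 kb, chr6:97808784-97808922, was called in the 3 PFF libraries only, at 12.1, 24.4 and 15.7 from 13, 15 and 13 fragments. These are low peaks, and the median percentile of all 2385 regions gained after PFF was 31.5. Among the 137417 top peaks of each library and among peaks of −log10 q of at least 5 the gained count was 1. That was Tfeb +25.7 kb among the top peaks, and Mitf +76.6 kb, whose PBS peak then drops out, at the stricter q.

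With MLi-2 added to PFF, 2 of 31 regions were lost against PFF (6.45%, where 1.64% of all regions were) and 0 gained (0.374% of all). The lost regions were Tfeb +36.8 kb and Mitf +1.8 kb, which PFF had gained, so both comparisons rest on the same PFF libraries, and each loss was kept in 2 of the 5 settings. Against PBS, PFF+MLi-2 gained 0 of 26 regions (0.225% of all) and lost 0 (0.577%). With Rab5 ASO added to PFF, 2 of 34 regions were lost against PFF (5.88%, where 1.94% of all were) and 0 gained (2.64%). The lost regions were Tfeb +46.7 kb and Mitf +1.8 kb. Tfeb +46.7 kb, chr17:47783560-47784010, was called at 36.6 in PBS replicate 1, at 62.9, 76.4 and 54.4 in PFF (17, 22 and 15 fragments), at 10.7 and 27.7 in PFF+MLi-2 replicates 2 and 3, and in no PFF+Rab5 ASO library. The PFF libraries were above every other library there. Tfeb +46.7 kb was lost in each of 5 alternative settings of peak threshold, merging and upstream window. The loss of Mitf +1.8 kb with Rab5 ASO was kept in 2 of these 5.

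Against PBS, PFF+Rab5 ASO gained 1 of 32 regions (3.13%, where 2.59% of all were), the tandem repeat at Tfeb +52.2 kb. It lost 1 (3.13%, where 0.991% of all were), Mitf +174.9 kb. Tfeb +52.2 kb, chr17:47789090-47789282, was called at 34.0, 45.3 and 15.2 in PFF+Rab5 ASO from 23, 21 and 18 fragments and at 5.89 in PFF replicate 2. Mitf +174.9 kb, chr6:97981844-97982014, the only family region with CACGTG, was called at 60.4, 71.0 and 41.0 in PBS, at 8.56 and 66.8 in PFF replicates 1 and 2, at 21.1 in PFF+MLi-2 replicate 3 and in no PFF+Rab5 ASO library. It was thus called in 3, 2, 1 and 0 libraries of the 4 groups.

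**Figure D3:**
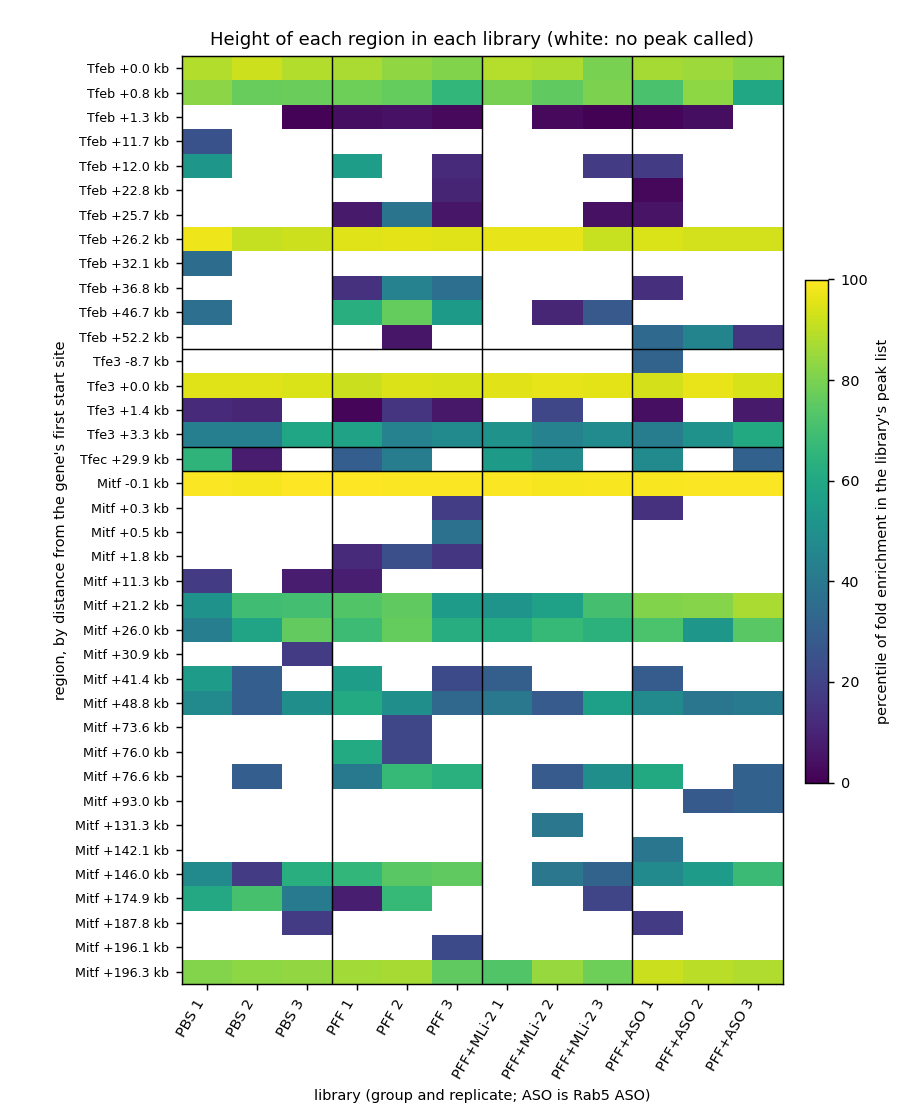
Within-list percentile of the family regions (rows, by gene and kb from the first TSS) in the 12 libraries (columns, by group), with blank cells where no peak was called. The regions called in every library form filled rows, and Tfeb +25.7 kb, Tfeb +36.8 kb and Mitf +1.8 kb are filled across PFF and blank across PBS.

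Heights were compared on ranks among the 72465 regions called in all 12 libraries, 10 of them in the family (3 of Tfeb, 2 of Tfe3 and 5 of Mitf). Effects are differences in normal scores, the rank of a peak turned into standard deviations. They were tested with limma on the 6 libraries of each comparison, with Benjamini-Hochberg adjustment over all 72465 regions. No family region passed an adjusted p of 0.05 in any of the 5 comparisons. The same limma test called 0 of all regions (0%) for PFF vs PBS (7044 at an unadjusted p under 0.05), 0 (0%) for PFF+MLi-2 vs PFF (8289) and 0 (0%) for PFF+MLi-2 vs PBS (4179). It called 3.83% for PFF+Rab5 ASO vs PFF (2772 regions, 1671 with a replicate block and 0 to 995 with 1 library left out). It called 1.63% for PFF+Rab5 ASO vs PBS (1184 regions, 0 with the block and 0 to 35 with 1 library left out). Of the 10 family regions, 0, 0 and 0 had an unadjusted p under 0.05 in the first 3 comparisons and 1 in each of the last, Mitf +21.2 kb. The comparisons share their PFF or PBS libraries and are not independent.

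The upstream promoters of Tfeb and the promoter of Tfe3 had lower ranks with PFF than with PBS in these libraries, and none passed the test. The internal start region Tfeb +26.2 kb had an effect of 0.08 (SE 0.23, limma, adjusted p = 0.941). The groups did not overlap in 3 of 10 family regions, Tfeb +0.0 kb, Tfeb +0.8 kb and Tfe3 +0.0 kb, all lower (15.1% of all regions did not overlap). With percentiles of the whole lists only Tfeb +0.0 kb did not overlap, and with peaks ranked by −log10 p none. Tfeb +0.0 kb differed by -0.39 (SE 0.22, limma, adjusted p = 0.613). Mitf +26.0 kb differed by 0.31 (SE 0.34, limma, adjusted p = 0.819) and Tfeb +0.8 kb by -0.29 (SE 0.21, adjusted p = 0.698). Without PBS replicate 1 Mitf +26.0 kb turned to -0.084. Tfeb +0.0 kb was at -0.25 without PBS replicate 2, and Tfeb +0.8 kb at -0.18 without PFF replicate 3. TSS regions of protein-coding genes as a whole moved the same way, with a positive effect in 32.8% of 13755 genes and a median of -0.09.

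For PFF+MLi-2 vs PFF the order was the opposite. Tfeb +0.8 kb and Tfe3 +0.0 kb were above PFF without overlap (2 of 10, where 17.7% of all regions did not overlap). With percentiles of the whole lists only Tfe3 +0.0 kb did not overlap, and with peaks ranked by −log10 p none. Their effects were 0.34 (SE 0.20, limma, adjusted p = 0.565) and 0.32 (SE 0.19, 95% interval -0.10 to 0.74, adjusted p = 0.562). Mitf -0.1 kb had -0.21 (SE 0.21, adjusted p = 0.734), which became -0.11 without PFF replicate 1 and -0.12 without PFF+MLi-2 replicate 2. A positive effect was found in 67.9% of protein-coding TSS regions, with a median of 0.10. Against PBS, Tfe3 +0.0 kb alone was higher in PFF+MLi-2 without overlap (1 of 10, where 10.3% of all regions did not overlap). The largest effect was that of Mitf +26.0 kb (0.25, SE 0.34, limma, adjusted p = 0.981), which turned to -0.14 without PBS replicate 1. It was followed by Tfeb +0.0 kb (-0.20, SE 0.23, adjusted p = 0.975) and Mitf -0.1 kb (-0.16, SE 0.22, adjusted p = 0.983). Tfeb +0.0 kb was at -0.054 without PFF+MLi-2 replicate 3, -0.065 without PBS replicate 2 and -0.31 without PBS replicate 1. Mitf -0.1 kb was at -0.056 without PBS replicate 3, -0.061 without PFF+MLi-2 replicate 2, -0.24 without PFF+MLi-2 replicate 1 and -0.29 without PBS replicate 2.

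With Rab5 ASO, a pair of intronic Mitf regions had higher ranks than with PFF or PBS, without passing the test, while the Mitf promoter overlapped. Against PFF, Mitf +21.2 kb and Mitf +196.3 kb were higher and Tfeb +26.2 kb lower without overlap (3 of 10, where 25.9% of all regions did not overlap). Mitf +21.2 kb, at 83.4 ± 3.52 against 67.9 ± 11.3 percentile points (SD, n = 3 each), had an effect of 0.68 (SE 0.24, 95% interval 0.14 to 1.22, limma, adjusted p = 0.144). It was at 0.48 without PFF replicate 3 and 0.54 without PFF+Rab5 ASO replicate 3, and the interval then included 0. Mitf +196.3 kb, at 90.0 ± 1.92 against 82.9 ± 6.22 percentile points, had 0.39 (SE 0.21, 95% interval -0.07 to 0.86, adjusted p = 0.318), and 0.24 without PFF replicate 3. Tfeb +26.2 kb had -0.23 (SE 0.18, adjusted p = 0.517). Against PBS, the same intronic Mitf regions were higher and Tfeb +0.0 kb lower without overlap (3 of 10, where 23.0% of all regions did not overlap). Mitf +21.2 kb had 0.82 (SE 0.30, 95% interval 0.16 to 1.47, limma, adjusted p = 0.172), Mitf +196.3 kb 0.39 (SE 0.21, adjusted p = 0.348) and Tfeb +0.0 kb -0.38 (SE 0.22, adjusted p = 0.380). Mitf +21.2 kb was at 0.49 without PBS replicate 1 and 0.68 without PFF+Rab5 ASO replicate 3, where its interval included 0, and Tfeb +0.0 kb was at -0.25 without PBS replicate 2.

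A wider fit on the 93104 regions called in at least 2 libraries of each group added Mitf +146.0 kb and Tfec +29.9 kb. At Mitf +146.0 kb the effect was 0.91 for PFF vs PBS (SE 0.32, limma, adjusted p = 0.432). It was -1.02 for PFF+MLi-2 vs PFF (SE 0.25, adjusted p = 0.294), the latter on 5 libraries since replicate 1 of PFF+MLi-2 had no peak. Its PFF percentiles of 72.0 ± 5.24 stood over 42.9 ± 22.9 in PBS (SD, n = 3), and neither effect passed the adjusted threshold. PBS replicate 2 was lowest at 17.9, and no replicate was left out in this fit. On the ranks of this fit the PFF and PBS libraries overlapped, which they did not by percentile. Tfec +29.9 kb, on 4 libraries, had -0.03 for PFF vs PBS with a 95% interval of -1.21 to 1.15. For PFF+MLi-2 vs PFF it had 0.62 (SE 0.27, 95% interval -0.03 to 1.28, limma, adjusted p = 0.485), and for PFF+MLi-2 vs PBS 0.59 (95% interval -0.60 to 1.78, adjusted p = 0.947).

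**Figure D4:**
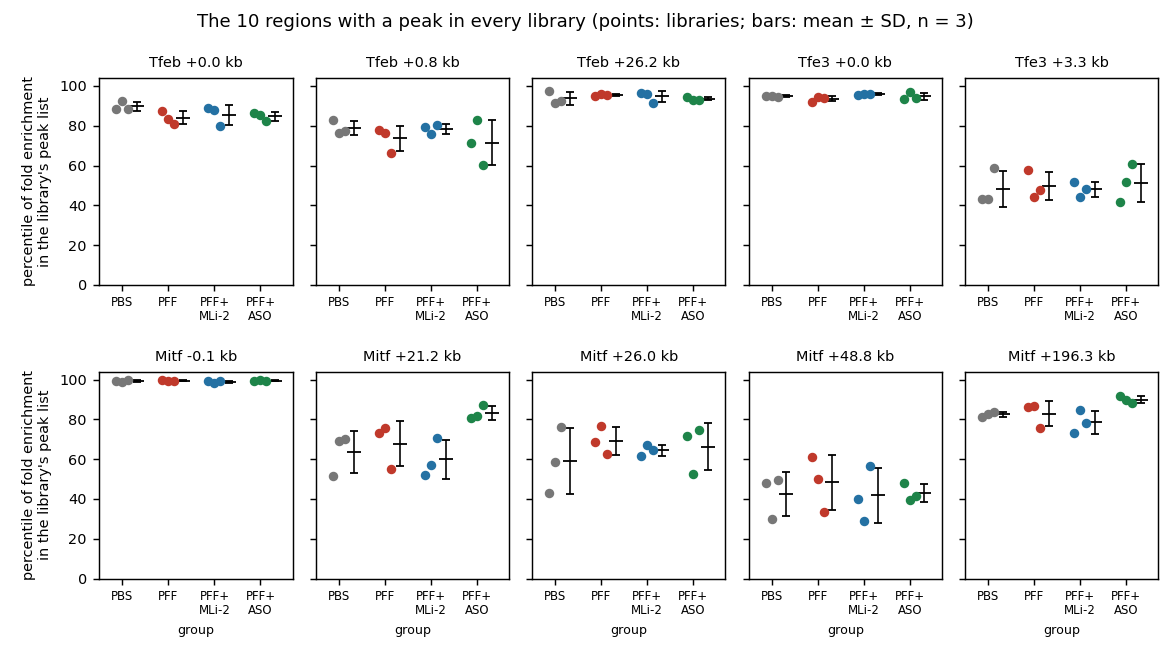
Within-list percentile (y axis) in each library by group (x axis) for the 10 family regions called in all 12 libraries, with 1 point per library and the mean ± SD (n = 3) beside each group. Mitf +21.2 kb and Mitf +196.3 kb have their 3 PFF+Rab5 ASO points above all 9 others, and Mitf -0.1 kb stays between 98.5 and 99.7.

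**Figure D5:**
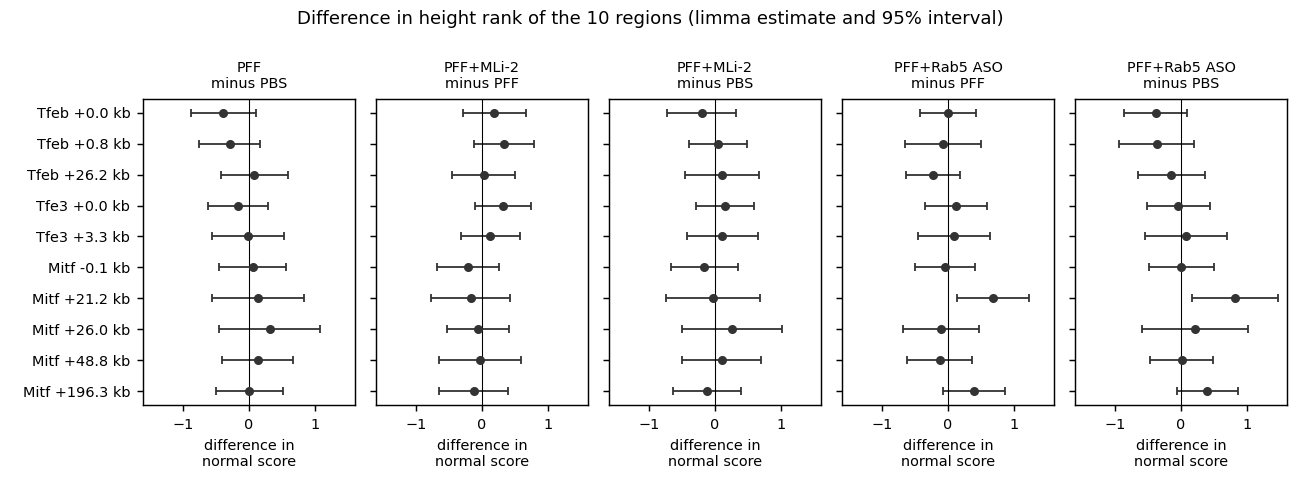
Difference in normal scores with its 95% interval (x axis) for the 10 family regions (rows) in the 5 comparisons (panels), from limma. All intervals include 0 except those of Mitf +21.2 kb in the PFF+Rab5 ASO comparisons, 0.14 to 1.22 against PFF and 0.16 to 1.47 against PBS, which include 0 without PFF+Rab5 ASO replicate 3.

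Over the 12 libraries, Pearson's r of the normal scores was -0.02 between Tfeb +26.2 kb and Tfe3 +0.0 kb, -0.07 between Tfeb +26.2 kb and Mitf -0.1 kb, and -0.43 between Tfe3 +0.0 kb and Mitf -0.1 kb. These are descriptions, since libraries share groups and depth. Among the strongest TSS regions of 13755 protein-coding genes, those most like Tfeb were Ccdc14 (r = 0.82), Fap (0.81) and Dtx3l (0.80). Among those most like Tfe3 were Atf4 (0.92), a transcription factor of the integrated stress response, and Zfp280d (0.90). Those most like Mitf were March10 (0.82), Glra3 (0.81) and 2510002D24Rik (0.80).

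E-box letters, which family proteins bind, were sought in the regions themselves. In the 201 bp around the summit CACGTG stood in 1 of 38 family regions (2.63%, against 3.52% of all regions), TCACGTGA in 0 (0.227% of all) and CATGTG in 6 (15.8% against 14.9%). TGANTCA, the element bound by FOS and JUN dimers, stood in 8 of 38 (21.1% against 10.8%). These were Tfeb +22.8 kb, Tfeb +25.7 kb, Tfe3 +1.4 kb and 5 intronic regions of Mitf, with no test of the difference. A match is a description of the letters and not a site.

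Most upstream regulators and downstream targets of the family had an accessible TSS in every library, with exceptions among the CLEAR and MITF lineage targets, where 62.7% of all protein-coding genes did. TSS regions were called in all 12 libraries for 24 of 24 regulators at the lysosome (mTORC1, Rag GTPases, Ragulator, FLCN and the TSC and GATOR proteins, median percentile 95.1) and for 22 of 22 calcium, phosphatase, kinase and export regulators (92.9). They were called for 33 of 35 CLEAR targets (93.7, with no region for Atp6v0d2 and Gpnmb) and for 16 of 16 other E-box factors such as Myc and Usf1 (82.3). They were called for 7 of 12 MITF lineage targets (67.1, with no region for Mlana, Slc45a2 and Ctsk). Within the last list Tyr, Tyrp1 and Dct, enzymes of melanin synthesis, and Pmel, a structural protein of melanosomes, were called in all 12 libraries. The Pmel region also lies within 1 kb of the Cdk2 TSS, and that of Oscar within 1 kb of the Ndufa3 TSS, so these may belong to the neighbouring gene. The same holds for genes of the other lists, among them Tsc2 (Nthl1), Lamtor2 (Ubqln4), Ctsa (Neurl2) and Sqstm1 (Mgat4b).

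None of these genes passed the limma threshold after PFF or MLi-2. For PFF vs PBS the effect was positive in 6 of 24 lysosome regulators (median -0.13), 4 of 22 calcium and kinase regulators (-0.12), 10 of 33 CLEAR targets (-0.11), 1 of 16 other E-box factors (-0.14) and 1 of 7 MITF targets (-0.09), beside 32.8% and -0.09 over all protein-coding genes. For PFF+MLi-2 vs PFF it was positive in 17 of 24 (0.13), 18 of 22 (0.24), 26 of 33 (0.09), 15 of 16 (0.21) and 5 of 7 (0.03), beside 67.9% and 0.10. For PFF+MLi-2 vs PBS it was positive in 10 of 24 (-0.02), 15 of 22 (0.05), 17 of 33 (0.00), 11 of 16 (0.04) and 2 of 7 (-0.09), beside 53.3% and 0.01. The largest effects after PFF were in Tyr (-0.66, limma, adjusted p = 0.404), the arginine sensor Castor1 (0.59, adjusted p = 0.729) and the ubiquitin ligase Stub1 (-0.57, adjusted p = 0.457). The percentiles of Castor1 ran from 0.837 to 53.0 in PBS, across the 25.9 to 46.7 of PFF. For PFF+MLi-2 vs PFF they were in Castor1 (-0.59, adjusted p = 0.334), Stub1 (0.58, adjusted p = 0.363) and the sterol regulator Srebf2 (0.51, adjusted p = 0.376). For PFF+MLi-2 vs PBS they were in Tyr (-0.49, adjusted p = 0.896), Nprl3 (0.43, adjusted p = 0.912) and Lamtor5 (-0.39, adjusted p = 0.919).

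With Rab5 ASO, 1 gene of these lists passed the limma threshold against PFF and 0 against PBS. Over all 13755 protein-coding genes, the TSS regions of 52 were called higher and 26 lower against PFF, and 20 higher and 10 lower against PBS. Tyr, the melanin-forming tyrosinase and a MITF target, had percentiles of 76.0, 62.0 and 81.2 for PBS, 61.3, 56.6 and 58.0 for PFF, 65.1, 48.4 and 62.2 for PFF+MLi-2 and 81.8, 77.0 and 75.9 for PFF+Rab5 ASO. Its 3 PFF+Rab5 ASO libraries were above all PFF libraries and overlapped PBS. The effect against PFF was 0.81 (SE 0.19, limma, adjusted p = 0.0463). In 10 of 12 alternatives its adjusted p was above 0.05 (limma, adjusted p from 0.0366 to 0.121). For PFF+Rab5 ASO vs PFF, the effect was positive in 19 of 24 lysosome regulators (median 0.18), 16 of 22 calcium and kinase regulators (0.15), 23 of 33 CLEAR targets (0.14), 13 of 16 other E-box factors (0.19) and 5 of 7 MITF targets (0.07), beside 61.7% and 0.07 over all. For PFF+Rab5 ASO vs PBS it was positive in 11 of 24 (-0.03), 12 of 22 (0.02), 20 of 33 (0.03), 9 of 16 (0.01) and 3 of 7 (-0.01), beside 46.8% and -0.02. The largest effects were in Mxd3 (-0.54, limma, adjusted p = 0.222), Depdc5 (0.50, adjusted p = 0.272) and Castor1 (0.47, adjusted p = 0.664). The percentiles of Castor1 ran from 0.837 to 53.0 in PBS, across the 11.3 to 42.4 of PFF+Rab5 ASO.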

How the data were processed

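ATAC-seq of 12 libraries (4 groups of 3) was available as 1 narrowPeak list per library. Per the labels, the authors used Trim Galore 0.6.7 for trimming, Bowtie2 2.5.1 for alignment (GRCm38) and MACS2 2.2.7.1 for peaks in each library, without pooling. Peak caller options and the treatment of duplicates and of the Tn5 offset are not given in the sources used here. The deposited columns hold fold enrichment (a ratio to local background) at the summit, −log10 p, −log10 q and a score of 10 times the −log10 q rounded down. The lowest −log10 q in any list was 1.78. No count over regions was used, so a missing peak is not a measured zero.

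Lists were merged at 1 bp of overlap and annotated with GENCODE vM21. In a region with several peaks of a library the highest was kept. Summit fragments were recovered from fold and −log10 p (100% whole within 0.05), with 16 to 18 at the median peak, which limits precision, and relative depth was inferred as the modal local background over the narrowest peak width. Normal scores of ranks of fold were fitted with limma 3.58.1 in R 4.3.3 on the 6 libraries of a comparison, with no covariate. The fitting was tested on simulated data with a smaller and a larger shift. The smaller shift, above any effect of the 10 family regions common to all libraries, was not recovered. The larger shift was recovered in part. A region that did not pass is thus not shown to be unchanged. Sequences came from the genome and RefSeq tables with Python 3.11.15 and pysam 0.24.0.

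Named regions were those within 1 kb of a TSS in at least 2 libraries, those gained or lost, the 3 largest effects per comparison and the strongest region of each gene. Named list genes were those past the threshold, otherwise the 3 largest effects per comparison. Like genes were the 3 with the highest Pearson's r. For Tfe3, 1 of them is not reported here. Mitf +146.0 kb and other intronic regions were described after their values were seen. The members, gene lists and tests were chosen with earlier results of these data known. Alternatives were ranking by −log10 p, whole-list percentiles, equal numbers of top peaks, a −log10 q of at least 2, merging at 50 bp, a 1 kb upstream window, at least 2 of 3 libraries against 0, regions in at least 2 libraries per group, all 12 libraries in 1 fit, a replicate block and each replicate left out. A −log10 q of at least 5 was added after seeing the data.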

Additional observations from a re-analysis of the deposited data

How the results depend on the processing

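Of 110 values of the comparisons recomputed under settings other than leaving out a replicate, 95 kept their side of the threshold or stayed within 1.5 times the count. They include the counts of family regions past the limma threshold, which were 0 in every setting. With leaving out a replicate included, the count lost for PFF+Rab5 ASO vs PFF was kept in 7 of 12 settings. Of 96 values of named regions and genes, 92 kept their direction and their side of the threshold, though not their size: ranked by −log10 p, Tfe3 +0.0 kb went from 0.32 to 0.089 for PFF+MLi-2 vs PFF. No setting brought a family region past the limma threshold. Where a count changed, the cause was not tested. With equal numbers of top peaks, 1 family region was gained after PFF, 0 were lost for PFF+MLi-2 vs PFF and 1 was gained for PFF+Rab5 ASO vs PFF. With −log10 q of at least 5, 1 region was gained after PFF, 1 gained and 1 lost for PFF+Rab5 ASO vs PFF, 0 lost for PFF+Rab5 ASO vs PBS, and Tfec had 0.417 regions per library in place of 0.667. With merging at 50 bp, 0 were lost for PFF+MLi-2 vs PFF and 1 for PFF+Rab5 ASO vs PFF. With at least 2 of 3 libraries against 0, 1 was lost for PFF+MLi-2 vs PBS, 1 gained and 4 lost for PFF+Rab5 ASO vs PFF, and 2 gained and 2 lost for PFF+Rab5 ASO vs PBS.

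Leaving out a replicate gave 3 to 4 regions gained after PFF, 2 to 3 lost for PFF+MLi-2 vs PFF, 0 to 1 lost for PFF+MLi-2 vs PBS (1 when PBS replicate 2 or PFF+MLi-2 replicate 3 was left out), 0 to 1 gained and 2 to 4 lost for PFF+Rab5 ASO vs PFF (1 gained without PFF replicate 2 or PFF+Rab5 ASO replicate 1, 4 lost without PFF replicate 3 or PFF+Rab5 ASO replicate 1), and 1 to 2 gained and 1 to 2 lost for PFF+Rab5 ASO vs PBS (2 gained without PFF+Rab5 ASO replicate 1, 2 lost without PBS replicate 2). Mitf +26.0 kb reversed without PBS replicate 1, to -0.084 for PFF vs PBS (range -0.084 to 0.65) and -0.14 for PFF+MLi-2 vs PBS (range -0.14 to 0.59). Over all regions, calls of PFF+Rab5 ASO vs PFF went from 2772 to 1671 with a replicate block, 580 by whole-list percentiles and 0 to 995 with a replicate left out, and those of PFF+Rab5 ASO vs PBS from 1184 to 0 with the block, 347 by −log10 p, 0 by whole-list percentiles, 15 with regions in at least 2 libraries per group, 1922 in the 12-library fit and 0 to 35 with a replicate left out. PFF+MLi-2 vs PFF gained 56 calls in the 12-library fit. The block left 0 family regions called. Same-numbered libraries of different groups correlated at 0.00513 to 0.0788 over 18 pairs, and those of unlike number at -0.0705 to 0.0279. All lay under the 0.1 set for pairing, and the main fits were unpaired. Of 36 best matches to a library of another group, 33 had the same number. Whether these libraries share a pregnancy was not tested.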
